A study of Homo sapiens with 2 samples.

Results

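The genes of the ATF4 pathway and of the unfolded protein response were examined as a set of 36 named genes among the 60725 genes of the table. They were chosen by name from what is known of both pathways, with earlier results of these data known. Polyadenylated RNA was sequenced in bulk from KYSE30-Luc-GFP, an established human esophageal squamous cell carcinoma (ESCC) line that carries lentiviral luciferase and green fluorescent protein. Cultured cells were stained for CD44, the hyaluronan receptor, and the extremes of staining were sorted into a CD44 high (labelled positive) and a CD44 low (labelled negative) fraction, to compare cells enriched for a metastasis-initiating signature with cells depleted of it. Each fraction gave 1 library, so no difference has a replicate check, no test was run, and each interval covers counting error only. Both fractions share the line, the reporters, the culture and the staining, and the sources used here do not say whether the line is clonal. In bulk RNA, a change in the share of cells that express a gene cannot be told apart from a change in RNA per cell.

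The unfolded protein response is the reaction of a cell to misfolded protein in the endoplasmic reticulum. Its sensors are the kinases PERK (EIF2AK3) and IRE1 (ERN1) and the membrane-bound factor ATF6. PERK, and the kinase GCN2 (EIF2AK4) when amino acids are scarce, phosphorylate the initiation factor eIF2, which lowers protein synthesis in general and raises translation of ATF4 mRNA. ATF4 protein is therefore controlled largely at translation, which mRNA counts do not measure. ATF4 activates genes of amino acid supply and stress, whereas XBP1 and ATF6 activate chaperones and degradation factors of the endoplasmic reticulum.

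IRE1 acts by cutting an intron out of XBP1 mRNA, and this site is shown because the state of XBP1 is read from it. The intron of 26 bases lies in exon sequence of XBP1 at chr22:28796108-28796173 (GRCh38, minus strand, GENCODE 44), with 20 bases shown on each side. Capitals mark the intron as the annotation places it, and its removal shifts the reading frame from 261 to 376 codons. A G both opens the capitals and follows them, so an intron placed a base later gives the same spliced sequence.
XBP1 unspliced: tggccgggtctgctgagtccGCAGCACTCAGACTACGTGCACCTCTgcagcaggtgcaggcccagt
XBP1 spliced: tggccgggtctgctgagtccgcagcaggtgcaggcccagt

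The pathways are also known by the DNA motifs that their factors bind. Promoters of 300 bases (250 before and 50 after the start site, RefSeq, GRCh38.p14) were found for 32 of the 36 genes and searched on both strands. The C/EBP-ATF response element, TGATGNAA, is bound by ATF4 with a C/EBP partner. It was present in 3.67% of 27305 promoters and in those of 4 members, ASNS, CHAC1, HERPUD1 and PPP1R15B. The stretches are shown with the motif in capitals and 20 bases on each side, so that the targets can be set beside their levels.
ASNS, chr7:97872449-97872496, minus strand: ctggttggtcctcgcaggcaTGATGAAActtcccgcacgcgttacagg
CHAC1, chr15:40953242-40953289, plus strand: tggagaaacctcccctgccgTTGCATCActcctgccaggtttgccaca
HERPUD1, chr16:56931946-56931993, plus strand: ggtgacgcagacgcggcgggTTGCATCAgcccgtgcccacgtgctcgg
PPP1R15B, chr1:204412017-204412064, minus strand: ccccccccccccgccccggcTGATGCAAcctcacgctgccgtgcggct

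The endoplasmic reticulum stress element (ERSE), CCAAT and CCACG 9 bases apart, is bound by ATF6 with NF-Y. It was present in 0.0806% of all promoters and in those of 4 members, XBP1, CALR, CANX and CRELD2.
XBP1, chr22:28800583-28800641, minus strand: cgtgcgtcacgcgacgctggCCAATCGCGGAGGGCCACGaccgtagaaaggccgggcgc
CALR, chr19:12938364-12938422, plus strand: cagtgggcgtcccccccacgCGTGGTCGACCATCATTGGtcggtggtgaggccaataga
CANX, chr5:179698758-179698816, plus strand: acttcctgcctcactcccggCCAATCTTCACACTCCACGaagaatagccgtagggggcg
CRELD2, chr22:49918534-49918592, plus strand: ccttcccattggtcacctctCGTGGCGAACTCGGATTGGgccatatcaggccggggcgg

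The related ERSE-II, ATTGG and CCACG 1 base apart, was present in 0.0549% of all promoters and in those of 3 members, HERPUD1, SDF2L1 and HYOU1, the last with 2 copies. ERSE and ERSE-II thus fell in promoters of the endoplasmic reticulum group and of XBP1.
HERPUD1, chr16:56932005-56932055, plus strand: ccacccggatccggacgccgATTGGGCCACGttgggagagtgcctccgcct
SDF2L1, chr22:21642094-21642144, plus strand: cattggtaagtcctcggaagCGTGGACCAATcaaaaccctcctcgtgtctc
HYOU1, chr11:119057254-119057304, minus strand: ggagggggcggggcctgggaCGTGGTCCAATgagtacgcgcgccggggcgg

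The core of the unfolded protein response element, TGACGTGG, which XBP1 and ATF6 bind, was in 0.795% of promoters and, among members, in that of HYOU1, where it overlapped the other copy of ERSE-II. The cyclic AMP response element, TGACGTCA, was in 1.98% of promoters and, among members, in that of PPP1R15A. A match describes the letters of this window and is not evidence that a factor binds there.

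Expected counts summed to 21633236 in CD44 high and 22859583 in CD44 low. CD44 had 22832 normalised counts in CD44 high and 9722 in CD44 low, 2.35-fold higher (95% interval 2.29 to 2.41). The share of counts from mitochondrially encoded genes was 7.50% in CD44 high and 14% in CD44 low. Of 4 proliferation genes, MKI67, TOP2A and CCNB1 were 1.39-, 1.53- and 1.44-fold higher in CD44 high, and PCNA had a ratio of 1.24. Of 6 epithelial markers, KRT6A, KRT14, TP63 and CDH1 were lower and EPCAM higher in CD44 high, and KRT5 had 0 and 8 normalised counts. The 10 markers of other cell types summed to 316 and 403 normalised counts, the most being 292 for COL1A1, and 5 of them were at 0 in both libraries. Among the 10, CD68 was 2.08-fold higher in CD44 high, and COL1A1 and ACTA2 were lower, with ratios of 0.601 and 0.334. The part of these differences in the results that follow was not tested.

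The set as a whole stood near the middle of all genes, while its groups differed. A gene was counted as higher where it had at least 50 expected counts in a library, was at least 25% higher in CD44 high and had a 95% interval that left out equality. It was counted as lower where it was at least 20% lower, which is the same ratio inverted. This threshold was chosen with earlier results of these data known. Of the 36 genes, 35 reached the minimum of counts, and 10 of them were higher, 5 lower and 20 neither. Among 12371 genes with as many counts, 16.0% were higher and 18.8% lower, against 28.6% and 14.3% of the members. At 2-fold, 1 member was higher and 0 were lower, against 1.24% and 4.20% of all genes. The median log2 ratio (CD44 high / CD44 low) was 0.069 for the members, with a range from -0.52 to 1.04, and 0.0092 for all genes. Together the members took 0.549% of the counts in CD44 high and 0.502% in CD44 low. The totals include mitochondrially encoded counts (7.50% and 14.0%), which lower both shares, and more so in CD44 low.

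**Figure D1:**
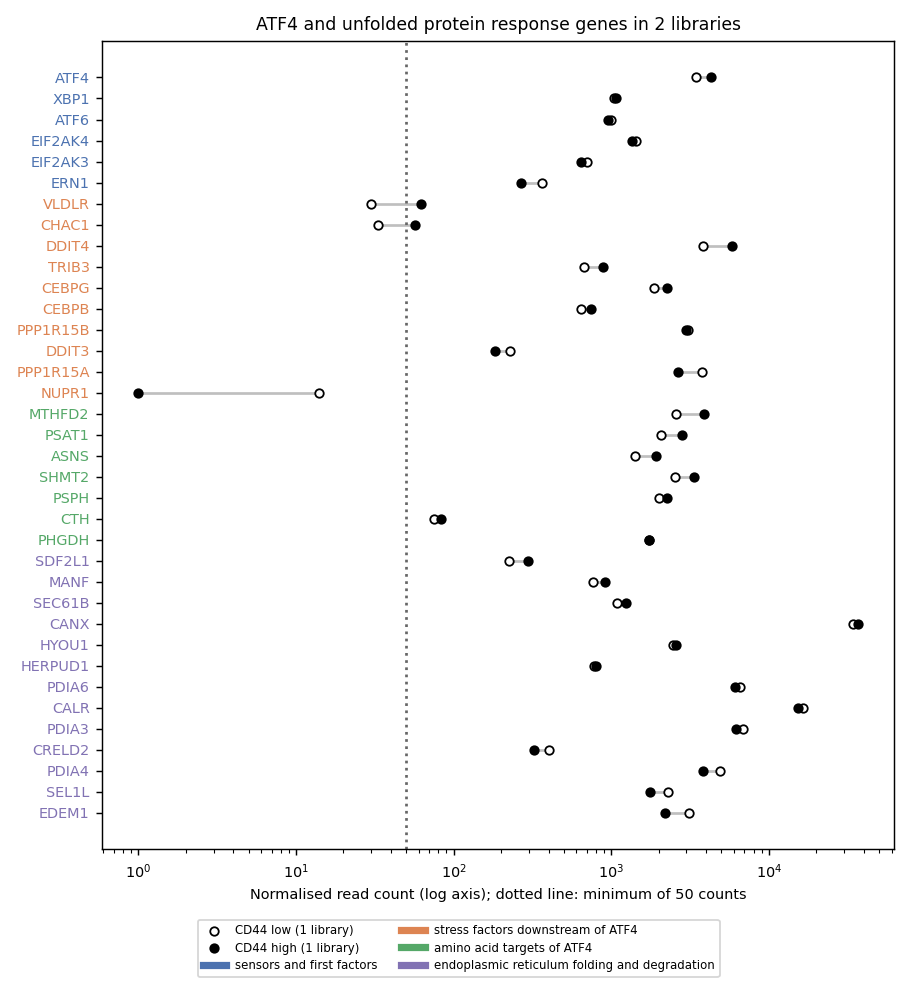
Normalised read counts (log axis) of the 36 genes in the CD44 high library (filled) and the CD44 low library (open), coloured by group and ordered by ratio within each group, with the minimum of 50 counts as a dotted line. CANX had the most counts in both libraries (36955 and 34194), and NUPR1 was the only gene under the minimum in both.

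Among the sensors and the factors they act through, ATF4 was higher in CD44 high, ERN1 was lower, and the other 4 genes were neither. ATF4 (ENSG00000128272, chr22:39519695-39522685, GRCh38, plus strand) had 4314 normalised counts in CD44 high and 3437 in CD44 low, a 1.26-fold difference (95% interval 1.1999 to 1.31). That is just past the rule, ATF4 shares reads with other loci (fractional counts), and it was no longer called when libraries were scaled by total counts without mitochondrial genes. ERN1, the IRE1 kinase and nuclease that cuts XBP1 mRNA, had 267 and 365 normalised counts, 1.36-fold lower in CD44 high (1.16 to 1.61), but it was not called lower on TPM.

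The remaining sensors differed little between the libraries. XBP1, the factor made from the cut mRNA, had 1075 normalised counts in CD44 high and 1035 in CD44 low. ATF6, which is released from the membrane by proteolysis, had 952 and 995. EIF2AK3, the PERK kinase, had 639 and 702, and EIF2AK4, the GCN2 kinase that senses uncharged tRNA, had 1358 and 1435. The intervals of these 4 ratios all included equality. The median log2 ratio of the 6 genes was -0.073, and it was above 0 with total counts or TPM. Less the all-gene median, it was -0.082 with total counts and -0.039 on TPM.

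The stress factors downstream of ATF4 had a median log2 ratio of 0.27 over 9 measured genes. Of these, 4 were higher in CD44 high (44.4%), 1 lower (11.1%) and 4 neither, against 16.0% and 18.8% of all genes. DDIT4, an inhibitor of the growth kinase complex mTORC1, had 5841 normalised counts in CD44 high and 3793 in CD44 low, 1.54-fold higher (1.48 to 1.60). TRIB3, a pseudokinase that binds AKT, had 890 and 674, 1.32-fold higher (1.19 to 1.46). Both were well counted, and their intervals were narrow.

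The other 2 calls in the same direction rested on few counts. CHAC1, an enzyme that degrades glutathione, had 57.0 normalised counts in CD44 high and 33.0 in CD44 low, 1.72-fold higher (1.11 to 2.74). VLDLR, a lipoprotein receptor that ATF4 raises under stress, had 62.0 and 30.0, 2.05-fold higher (1.32 to 3.31). VLDLR was the member past 2-fold, but it was under 2-fold with a prior count of 5. It had 0.95 TPM in CD44 high and 0.68 in CD44 low, under the minimum of 1 TPM, so it was not called on TPM.

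The opposing phosphatase subunit and the death-linked factor stood on the other side. PPP1R15A, the inducible subunit (GADD34) that directs protein phosphatase 1 to eIF2, had 2637 normalised counts in CD44 high and 3780 in CD44 low, 1.43-fold lower (1.36 to 1.51). PPP1R15B, its constitutive counterpart, had 2971 and 3051. DDIT3, which encodes the factor CHOP, had 183 and 229, a ratio of 0.800 (0.655 to 0.976), just short of the rule, and it was counted as lower with total counts without mitochondrial genes. CEBPG, a partner of ATF4 on DNA, had 2265 and 1877 normalised counts, and CEBPB, a related factor, had 743 and 646, with ratios of 1.21 and 1.15 that fell short of the rule. NUPR1, a stress-induced chromatin protein, had 1 and 14 normalised counts and was not measured further.

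The amino acid genes formed the group that was highest in CD44 high, with a median log2 ratio of 0.40 over 7 genes. Of these, 4 were higher (57.1%), 0 lower and 3 neither, against 16.0% higher and 18.8% lower among all genes. MTHFD2, the folate enzyme of mitochondria, had 3897 normalised counts in CD44 high and 2569 in CD44 low, 1.52-fold higher (1.44 to 1.60). SHMT2, which makes glycine from serine beside it, had 3357 and 2549, 1.32-fold higher. ASNS, the asparagine synthetase, had 1912 and 1408, 1.36-fold higher (1.27 to 1.46).

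Of the serine pathway, the middle enzyme was counted as higher and the enzymes around it fell short of the rule. PSAT1, the aminotransferase, had 2813 normalised counts in CD44 high and 2063 in CD44 low, 1.36-fold higher (1.29 to 1.44). PHGDH, which opens the pathway, had 1739 and 1743, and its interval included equality. PSPH, which closes it, had 2248 and 2005, a ratio of 1.12 on fractional counts, and it was counted as higher on TPM. CTH, which makes cysteine from cystathionine, had only 83 and 75 normalised counts.

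The endoplasmic reticulum group did not share the direction of the amino acid group. Of 13 genes, 1 was higher (7.69%), 3 were lower (23.1%) and 9 were neither, against 16.0% and 18.8% of all genes. The median log2 ratio was -0.099 on counts and 0.061 on TPM, against all-gene medians of 0.0092 and 0.15. Less the all-gene median, it was -0.11 on counts and -0.093 on TPM. The lower genes were EDEM1, SEL1L and PDIA4, while HERPUD1, PDIA3 and PDIA6, also of degradation or disulfide formation, were neither. EDEM1, a lectin-like factor that directs glycoproteins to degradation, had 2193 normalised counts in CD44 high and 3134 in CD44 low, 1.43-fold lower (1.35 to 1.51). SEL1L, the adaptor of the HRD1 ubiquitin ligase, had 1763 and 2279, 1.29-fold lower (1.21 to 1.38). PDIA4, a protein disulfide isomerase, had 3817 and 4870, 1.28-fold lower (1.22 to 1.33). EDEM1 was counted as lower on each of the 5 scalings tried, whereas SEL1L and PDIA4 were not called with total counts or TPM, nor PDIA4 with TMM.

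SDF2L1, a cofactor of the chaperone BiP, was the gene of this group that was higher, with 298 normalised counts in CD44 high and 225 in CD44 low, 1.33-fold (1.11 to 1.58). MANF, a secreted protective factor, had 912 and 761, a ratio of 1.1996. CRELD2, another secreted stress protein, had 323 and 403, a ratio of 0.803, and it was counted as lower with total counts without mitochondrial genes.

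The remaining genes of the group differed little on normalised counts. CANX and CALR, the lectin chaperones calnexin and calreticulin, had the highest TPM of the set, with 652 and 528 TPM for CANX and 621 and 595 TPM for CALR in CD44 high and CD44 low. On normalised counts their ratios were 1.08 and 0.928. PDIA3 and PDIA6, further disulfide isomerases, had ratios of 0.901 (fractional counts) and 0.934. HYOU1, a nucleotide exchange factor, HERPUD1, a scaffold of degradation, and SEC61B, a subunit of the translocon, had ratios of 1.05, 1.03 and 1.14. None of these 7 met the rule on counts, but HERPUD1 and SEC61B were counted as higher on TPM. After CALR, the highest TPM values in CD44 high were those of DDIT4 (254, against 148 in CD44 low), SEC61B (235 against 187) and ATF4 (224 against 161).

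**Figure D2:**
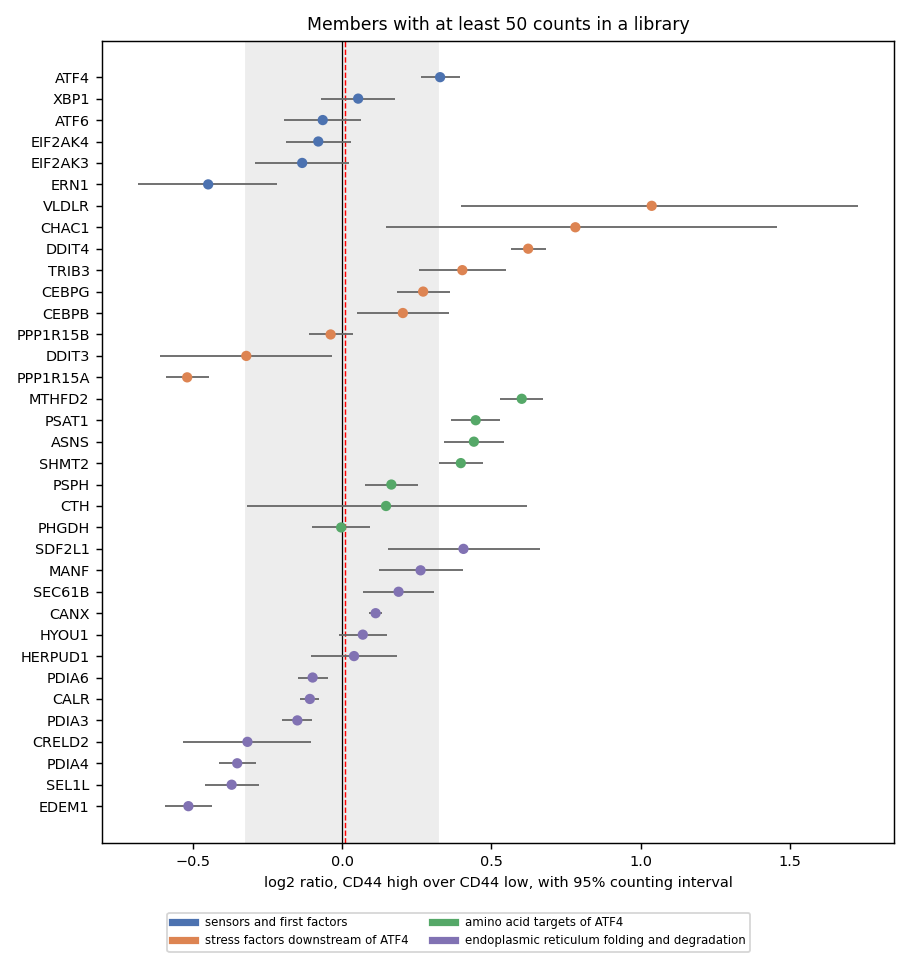
log2 ratio (CD44 high / CD44 low) for the 35 genes that reached 50 counts, with 95% counting intervals, the band within the 25% rule in grey and the median of all genes as a dashed line. The amino acid genes lie at or above 0 apart from PHGDH (-0.003), and EDEM1 (-0.51) and PPP1R15A (-0.52) lie lowest.

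On TPM the same order of groups was found around another centre. The all-gene median was 0.15 on the log2(TPM + 1) scale, against 0.0092 on counts, so the next group medians are given relative to it. Less the all-gene median, the groups had medians of 0.33 (amino acid genes), 0.22 (stress factors), -0.039 (sensors) and -0.093 (endoplasmic reticulum). By TPM, 14 of 34 members were at least 25% higher and 2 at least 20% lower, against 31.8% and 15.0% of 14672 genes that reached 1 TPM. Members called in either direction were higher in 66.7% of cases on counts, 80.0% with total counts, 56.25% with total counts without mitochondrial genes and 87.5% on TPM. On TPM, CEBPB, CEBPG, PSPH, HERPUD1 and SEC61B were added to the higher members, and VLDLR, under 1 TPM in both libraries, was left out. With total counts, CEBPG and MANF were added. With total counts without mitochondrial genes, 9 of 35 members were higher, without ATF4, and 7 were lower, with DDIT3 and CRELD2 added. With that scaling, 14.1% of all genes were higher and 20.5% lower. Of the all-gene calls in either direction, 46.1% (counts), 59.9% (total counts), 40.7% (total counts without mitochondrial genes) and 67.9% (TPM) were higher.

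**Figure D3:**
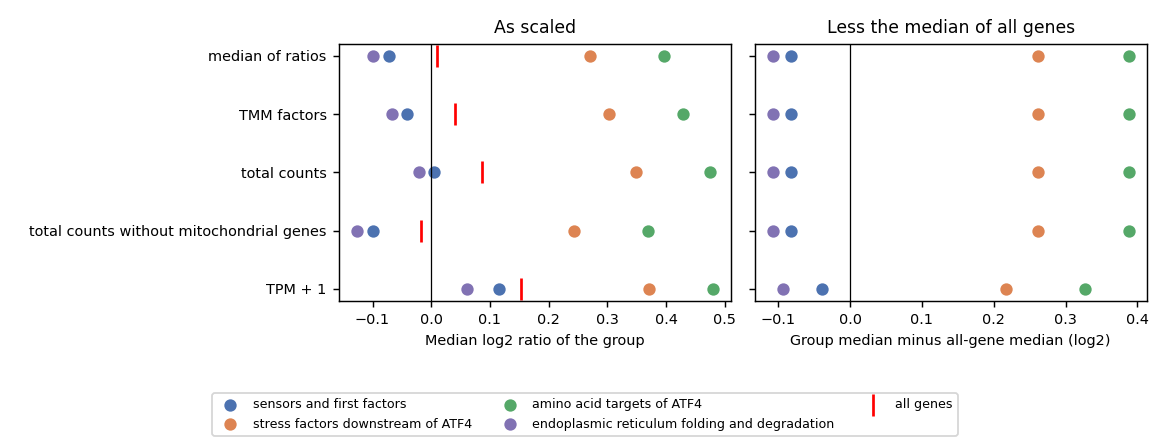
Median log2 ratio of each group under 5 scalings of the libraries, as scaled (left, with the all-gene median as a red bar) and less the all-gene median (right). The amino acid genes lie highest and the endoplasmic reticulum genes lowest under each of the 5 scalings. All scalings but TPM shift every log2 ratio by nearly the same amount, so only TPM could change this order.

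Other genes of the pathways, from 8 lists, gave the surroundings of the members. Cytosolic tRNA synthetases, which charge tRNA and include known ATF4 targets, had a median log2 ratio of 0.36. Of 20, 13 were higher (65%) and 0 lower, against 16.0% and 18.8% of all genes. YARS, GARS and TARS, the tyrosine, glycine and threonine enzymes, were 1.49-, 1.41- and 1.36-fold higher. Amino acid transporters had a median of 0.29, with 4 of 9 higher (44.4%) and 1 lower (11.1%). SLC7A1, a carrier of basic amino acids, was 1.65-fold higher, SLC3A2, a shared heavy subunit, 1.26-fold higher, and SLC38A2, a carrier of small neutral amino acids, 1.33-fold lower.

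The further ATF4 targets had medians below those of all genes on counts and on TPM. Of 15 measured, 3 were higher (20%) and 7 lower (46.7%), against 16.0% and 18.8% of all genes, with a median of -0.22. On TPM 4 were higher and 4 lower, against 31.8% and 15.0% of all genes. The TPM median was -0.024, or -0.18 less the all-gene median. ATF3, a stress factor, had 1090 normalised counts in CD44 high and 2208 in CD44 low, 2.03-fold lower, GDF15, a stress cytokine, was 2.18-fold lower, and STC2, a secreted stanniocalcin, was 1.83-fold higher. Of 12 further amino acid and folate enzymes, 3 were higher and 3 lower (25% each), with a median of 0.10. BCAT1, which transaminates branched-chain amino acids, and GLUL, the glutamine synthetase, were 3.31- and 3.15-fold lower.

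The lists of initiators and of the endoplasmic reticulum had median log2 ratios between -0.012 and 0.018, near that of all genes. On counts, 16.0% of all genes were higher and 18.8% lower. Of 21 initiators, 4 were higher and 2 lower, among them EIF2B2 and EIF2B3, subunits of the exchange factor of eIF2, at 1.59- and 1.505-fold higher, and ATF6B, a relative of ATF6, at 1.35-fold lower. Of 19 chaperones and disulfide enzymes, 1 was higher (HSPA13, 1.28-fold) and 2 lower (DNAJC3, 1.33-fold, and DNAJB9, 1.31-fold). DNAJB9 had 8.71 and 8.35 TPM, a log2 ratio of 0.0545, below the all-gene TPM median of 0.15. Of 15 degradation genes, 2 were higher (UBE2G2, 1.45-fold, and VIMP, 1.30-fold) and 1 lower (OS9, 1.28-fold). Of 33 genes of the translocon, signal peptidase, glycosylation and vesicle coat, 3 were higher and 1 lower, with SRPRB 1.76-fold and SRP19 1.27-fold higher and STT3B 1.29-fold lower. On TPM, where 31.8% of all genes were higher and 15.0% lower, the counts were 8 higher and 0 lower for the initiators, 4 and 0 for the chaperones, 5 and 1 for degradation, and 8 and 0 for the translocon list. They were 17 and 0 for the tRNA synthetases, 5 and 0 for the transporters, and 6 and 2 for the amino acid and folate enzymes.

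**Figure D4:**
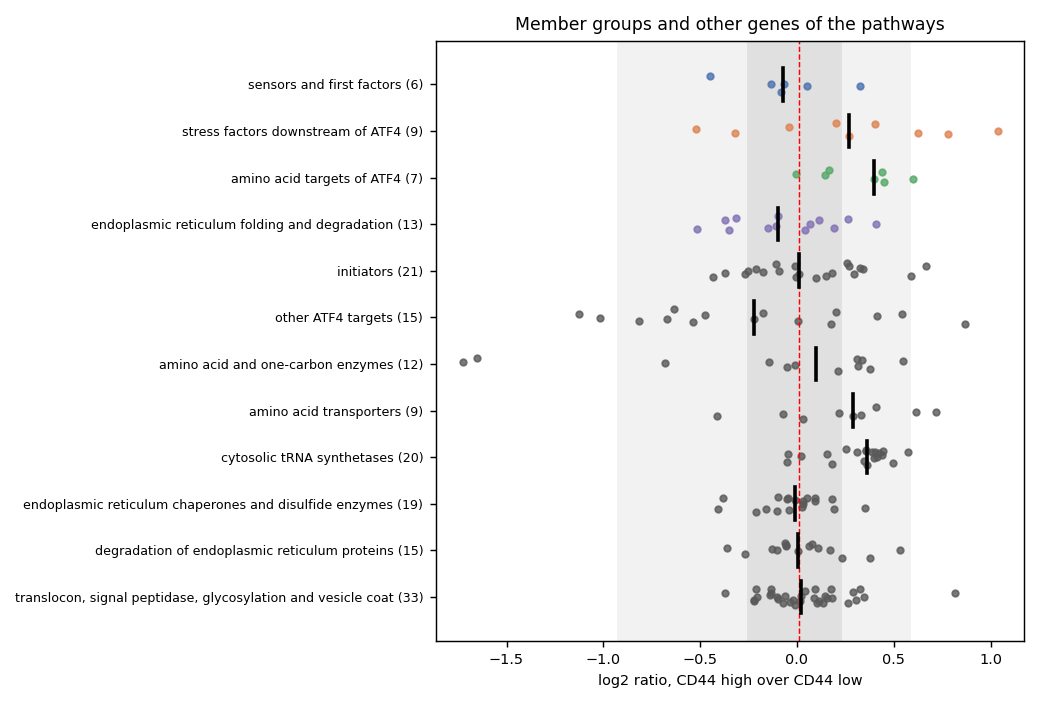
log2 ratio (CD44 high / CD44 low) for the measured genes (points, number in brackets) of the 4 member groups and 8 other lists, with each median as a black bar, the middle 50% and 90% of all genes in grey and their median as a dashed line. The tRNA synthetases (median 0.36) and the amino acid targets (0.40) lie to the right of the all-gene median of 0.0092.

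Transcript shares were compared in the 31 members with at least 200 counts in both libraries, as percentages of the TPM of a gene. In 4 of them a transcript differed by at least 10 percentage points, against 33.2% of 9349 genes with as many counts. MANF-204, the coding transcript, took 79.6% in CD44 high and 62.0% in CD44 low, and MANF-203, which retains an intron, took 15.8% and 32.7%. HERPUD1-201 took 23.5% and 41.1%. ERN1-201, the long coding transcript, took 51.5% and 63.2%, and ERN1-207 took 42.0% and 32%. SHMT2-232 took 18.4% and 6.46%, and SHMT2-223 took 2.80% and 15.3%. With transcript counts in place of TPM, 2 members shifted (HERPUD1 and SHMT2), against 21.0% of the same genes. MANF and ERN1 then fell under 10 points, with 88.6% and 81.5% for MANF-204 and 83.1% and 88.8% for ERN1-201.

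XBP1 transcripts with the junction of the spliced form were rare in both libraries. The spliced model took 11 of 1074 expected counts in CD44 high, or 1.02% (exact binomial interval 0.512 to 1.83), and 24 of 1036 in CD44 low, or 2.32% (1.49 to 3.43). The intervals of the shares overlapped, but the ratio of its normalised counts (10.92 in CD44 high and 23.95 in CD44 low) was 0.469, with a counting interval of 0.203 to 0.973 that left out equality. Both values were under the minimum of 50 counts. Reads that do not cross the 26 bases printed above cannot tell the forms apart, and the deposited version of the spliced model is shorter than that of GENCODE 44, so these shares are estimates of the assignment rather than of splicing.

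**Figure D5:**
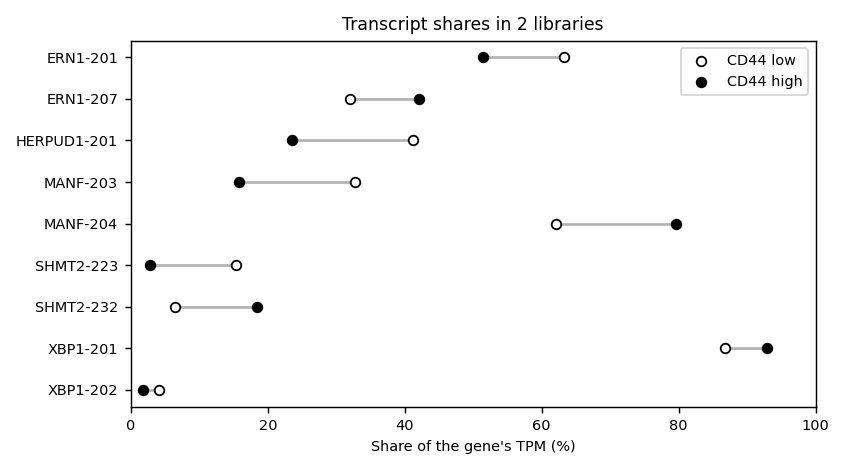
Share of the TPM of its gene (%) taken by each transcript that differed by at least 10 percentage points, and by XBP1-201 (unspliced) and XBP1-202 (spliced), in CD44 high (filled) and CD44 low (open). MANF-204 lies at 79.6% and 62.0%, and XBP1-202 at 1.78% and 4.05%.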

How the data were processed

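The sample labels gave the groups. As the study's methods state, the authors sorted the cells with the most and the least CD44 staining, prepared poly(A) libraries with adapters that carry molecular identifiers, mapped read pairs to GRCh38 with STAR, and quantified them with RSEM. The annotation release, and whether identifiers or strand were used in counting, are not given in the sources used here. Before deposit, the authors scaled the expected counts of RSEM by a size factor. TPM values, deposited beside them, are scaled by transcript length and library sum. Deposited columns of the authors' own comparison (fold changes, posterior probabilities and FDR) were not used.

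Unscaled expected counts were recovered from the step of each column (largest deviation 1.79e-07 of a step). The totals were 21633236 and 22859583. Ratios used median-of-ratios size factors (0.999 and 1.00) and a prior count of 0.5. Their 95% intervals are exact conditional binomial intervals on rounded counts and cover counting error only. Genes whose counts were not whole within 0.05 share reads with other loci. Scripts were tested on simulated data. Members, lists and the call threshold of 1.25-fold were chosen with earlier results of these data known. Those results put most members under 1.5-fold, so the numbers of calls depend on this choice. At 1.5-fold, 4 members were higher and 0 lower, against 10 and 5 at 1.25-fold. All 36 members are named, and from each other list the 3 genes with the largest ratio among those called with at least 200 counts in a library. A gene that this rule selects is not reported here. Alternatives were TMM factors (edgeR 4.0.16, R 4.3.3), total counts with and without mitochondrial genes, TPM on the log2(TPM + 1) scale, and other prior counts, minima and folds. Python 3.11.15 with numpy 2.4.6, scipy 1.17.1 and pandas 2.3.3 was used.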

Additional observations from a re-analysis of the deposited data

How the results depend on the processing

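No paired analysis was possible because each group has 1 library. With total counts, the endoplasmic reticulum median was -0.021, against 0.087 for all genes, and 3 of 35 members were lower, against 15.0% of all genes. Without centring on all genes, the TPM log2 medians were 0.21 (members), 0.11 (sensors), 0.37 (stress factors) and 0.061 (endoplasmic reticulum), against 0.15 for all genes. On TPM, 2 members were lower, against 15.0% of all genes, and 0 were higher at 2-fold. With a prior count of 5, or a minimum of 200 counts, 0 members were higher at 2-fold. With a minimum of 10 counts, NUPR1 was added and 1 member was lower at 2-fold. With whole counts only, which leaves out ATF4, PDIA3 and PSPH, the endoplasmic reticulum median was -0.030. The sensors, with a median of -0.080, were then the lowest group. With a call at 1.5-fold, 4 of 35 members were higher and 0 lower, against 4.93% and 10.4% of all genes. With transcript counts, 2 genes had a transcript shift, without MANF and ERN1. No called member changed direction under these alternatives. Few counts limit CHAC1, VLDLR, CTH and NUPR1.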
